A study of Caenorhabditis elegans with 11 samples.

Results

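The flp genes of the nematode Caenorhabditis elegans encode the precursors of the FMRFamide-like peptides, a large family of neuropeptides. Members were taken by gene symbol, as every transcript cluster that the authors' annotation names flp- followed by a number, with 1 cluster per gene. A transcript cluster is the set of array probes that reads 1 gene. The rule found 31 genes, each with 1 cluster, among 29317 clusters and 26763 distinct gene names. No measured value entered the rule. All 31 clusters passed the filter on low values, although flp-23, at 1.28 to 1.91 on the log2 scale, lay beside the filter level of 1.52. In flp-17 and flp-2 some groups also lay at that level, where a lower true level could not be read.

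FMRFamide-like peptides are short peptides that end in arginine and amidated phenylalanine. Each precursor holds 1 or more peptides, which the convertase EGL-3 and the carboxypeptidase EGL-21 cut out in dense-core vesicles before the peptide end is amidated. The peptides are released mainly by neurons and act on G protein-coupled receptors, several of them named npr, frpr or dmsr. In this animal they are known for roles in locomotion, feeding, egg-laying, sleep, mating and fat metabolism.

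Whole animals of the wild-type laboratory strain N2 were measured in 4 groups, with 2 control arrays and 3 arrays for each of 3 betalains. Betalains are plant pigments in which betalamic acid is joined to an amine or amino acid. Indicaxanthin carries proline, phenylalanine-betaxanthin carries phenylalanine, and the betacyanin used here, called indoline-betacyanin below, carries indoline carboxylic acid. L1 larvae grew in S medium, and dosing began 16 to 18 h after hatching, with 25 uM of 1 betalain for 48 h at 20 °C. All groups shared the strain and the medium, and the labels call each array an independent trial of young adults, 3 days after hatching. The labels do not say what separated the trials, so p-values measure the spread between these arrays, which may be technical.

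The arrays divided by markers of adulthood rather than by the 4 groups. The mean log2 level of the 6 yolk genes, which the adult intestine expresses, was 1.56 to 1.71 on the control arrays, 1.67 to 3.17 with indoline-betacyanin and 1.71 and 1.75 on indicaxanthin arrays 1 and 2. It was 10.01 to 10.07 with phenylalanine-betaxanthin and 10.09 on indicaxanthin array 3. The means of 14 oocyte and eggshell genes, 8 germ line genes and 7 sperm genes were also higher on these 4 arrays than on the other 7, and that of 10 moulting genes was lower, at 4.39 to 5.25 against 6.53 to 7.20. The label of young adult therefore met high yolk and oocyte markers on 4 of 11 arrays. Array 3 of indicaxanthin had a correlation over all clusters of 0.826 and 0.818 with the other arrays of its group, against 0.990 to 0.994 with those of phenylalanine-betaxanthin. Counts of genes called are given with all 11 arrays and again without indicaxanthin array 3.

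The FLP genes moved with this division. The controls had a mean FLP level (log2) of 5.27 and 5.25, and indicaxanthin arrays 1 and 2 of 5.36 and 5.90, but indicaxanthin array 3 of 3.86. The mean was 5.86, 5.98 and 5.96 with indoline-betacyanin and 3.91, 3.84 and 3.77 with phenylalanine-betaxanthin. The 3 indoline-betacyanin arrays thus lay above both controls, and the 4 high-yolk arrays lay below them. In RNA of whole animals, a changed neuronal share of the RNA and a changed FLP level per neuron cannot be told apart. Relative to 10 panneuronal genes, the family medians against control with indoline-betacyanin and phenylalanine-betaxanthin were -0.064 and -0.068.

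**Figure D1:**
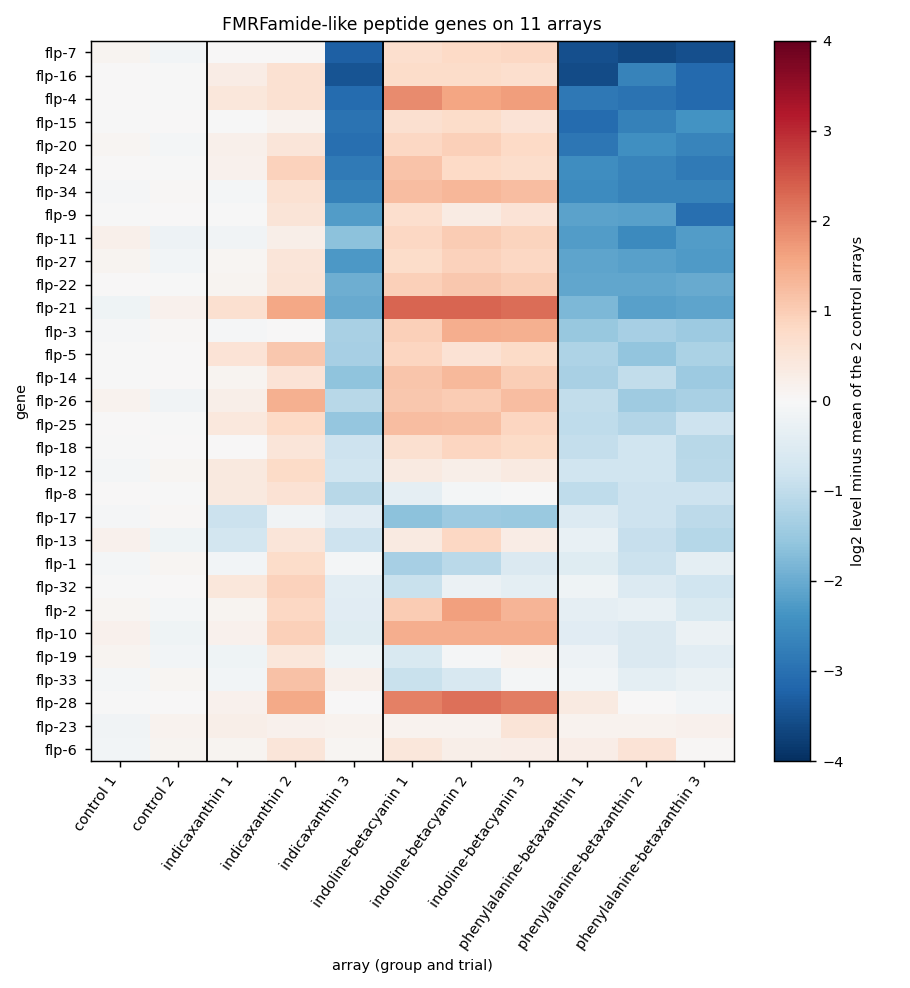
Log2 level of each of the 31 FLP genes (rows) on each of the 11 arrays (columns), as the difference from the mean of the 2 control arrays, in colour. Most rows are below the controls on the 3 phenylalanine-betaxanthin arrays and on indicaxanthin array 3 and above them with indoline-betacyanin, while flp-17 and flp-1 are low with indoline-betacyanin. Colours show RMA values, and relative to the panneuronal genes the family median with indoline-betacyanin is -0.064.

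Within the indicaxanthin group the family split by array. Array 3 was below array 2 in 31 of 31 genes and below array 1 in 28, with a median difference from array 1 of -1.5 and an extreme of -3.75 at flp-16. It was closer to the phenylalanine-betaxanthin mean than to arrays 1 and 2 in 28 of 31 genes, the exceptions being flp-1, flp-17 and flp-33, and inside the phenylalanine-betaxanthin range in 17. Arrays 1 and 2 also differed from each other: array 2 was above array 1 in 30 of 31 genes, by a median of 0.45. Between the 2 controls, array 2 was above in 16 genes and below in 15, with a median difference of 0.02.

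By the RefSeq gene table of assembly WBcel235, in which all 31 genes were found, 13 of 31 FLP genes lie on chromosome X. That is a share of 41.9%, against 13.7% of the protein-coding genes matched by a named cluster (2634 of 19177). Chromosomes III and IV hold 5 each, II and V hold 3 each, and I holds 2. flp-28, flp-3 and flp-2 are consecutive protein-coding genes on X, between W07E11.1 and unc-58. The array annotation's own coordinates were not used here.

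The first comparison asked which FLP genes differed between animals given indoline-betacyanin and untreated animals. 4 genes rose, flp-28, flp-10, flp-2 and flp-3, and flp-17 fell. That is 12.9% of the 31 genes called higher and 3.23% called lower at an adjusted p under 0.05, against 7.97% and 9.37% of the 20291 clusters tested. The median change of the family was 0.77 on the log2 scale, against 0.02 over all clusters tested, and -0.064 when arrays were centred on the panneuronal genes. In 25 genes all indoline-betacyanin arrays were above both controls and in 4 all were below, against 31.1% and 29.2% of all clusters. Markers of other tissues also differed in this comparison. Of 7 intestine genes 4 fell and none rose with all arrays (4 and 1 without indicaxanthin array 3), and the list mean was 6.55 to 6.60 with indoline-betacyanin against 7.51 and 7.75 in the controls. Of 8 body wall muscle genes 2 rose and none fell (3 and 1 without array 3), with list means of 7.68 to 7.99 against 7.39 and 7.48. The part of these tissues in the FLP changes was not tested.

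The neighbours flp-28, flp-3 and flp-2 had 3 of the 4 rises called with all arrays, while 20 genes were called higher without indicaxanthin array 3. flp-28 read 6.32 and 6.35 on the control arrays, 6.51, 7.86 and 6.35 with indicaxanthin, 8.35, 8.56 and 8.37 with indoline-betacyanin, and 6.71, 6.35 and 6.22 with phenylalanine-betaxanthin. All indoline-betacyanin arrays were above every control and every phenylalanine-betaxanthin array, and indicaxanthin array 2 stood above its own group. flp-28 rose by 2.09 on the log2 scale, which is 4.25-fold (SE 0.39, adjusted p 0.00595). flp-28, flp-7 and flp-11 are the 3 genes taken as markers of the family, and with all arrays flp-28 alone of these passed.

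flp-3, whose peptides are known to guide the response of males to a mating pheromone, read 4.35 and 4.44 on the control arrays, 4.35, 4.43 and 3.11 with indicaxanthin, 5.35, 5.86 and 5.81 with indoline-betacyanin, and 2.89, 3.08 and 2.95 with phenylalanine-betaxanthin. The indoline-betacyanin arrays were above all others, and the 3 phenylalanine-betaxanthin arrays together with indicaxanthin array 3 were below all others. Against control, flp-3 rose by 1.28 with indoline-betacyanin (SE 0.36, adjusted p 0.0392). flp-2, whose peptides promote arousal through the receptor FRPR-18, read 2.14 and 1.99 on the control arrays, 2.18, 2.90 and 1.61 with indicaxanthin, 3.09, 3.70 and 3.44 with indoline-betacyanin, and 1.70, 1.75 and 1.47 with phenylalanine-betaxanthin. Its indoline-betacyanin arrays were above all others, its phenylalanine-betaxanthin arrays lay around the filter level, and it rose by 1.34 against control (SE 0.33, adjusted p 0.0233).

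flp-10 and flp-17 encode peptides that act on the same receptor, EGL-6, which inhibits egg-laying, and they moved in opposite directions. flp-10 read 6.62 and 6.29 on the control arrays, 6.63, 7.41 and 5.97 with indicaxanthin, 7.90, 7.91 and 7.90 with indoline-betacyanin, and 6.01, 5.88 and 6.22 with phenylalanine-betaxanthin. Its indoline-betacyanin arrays had an SD of 0.01 and did not overlap any other group. It rose by 1.45 against control (SE 0.34, adjusted p 0.0188). flp-17, expressed in the carbon dioxide-sensing BAG neurons, read 3.04 and 3.14 on the control arrays, 2.22, 2.95 and 2.64 with indicaxanthin, 1.46, 1.64 and 1.60 with indoline-betacyanin, and 2.55, 2.26 and 2.02 with phenylalanine-betaxanthin. Both controls were above all 3 indoline-betacyanin arrays, and no array of another group was as low. With indoline-betacyanin its values lay around 1.52, the filter level, which makes the fall a lower bound. flp-17 fell by 1.52, which is at least 2.87-fold lower (SE 0.23, adjusted p 0.00169). The receptor gene egl-6 differed by 0.48 (SE 0.25, adjusted p 0.253), which did not pass.

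flp-1, which encodes peptides that modulate locomotion, had the next most negative change with indoline-betacyanin. It read 4.55 and 4.69 on the control arrays, 4.5, 5.35 and 4.54 with indicaxanthin, 3.29, 3.52 and 4.05 with indoline-betacyanin, and 4.14, 3.76 and 4.22 with phenylalanine-betaxanthin. The indoline-betacyanin arrays were all below both controls, and the change of -1.0 against control missed the threshold with all arrays (SE 0.31, adjusted p 0.0554) and passed without indicaxanthin array 3 (adjusted p 0.0138).

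**Figure D2:**
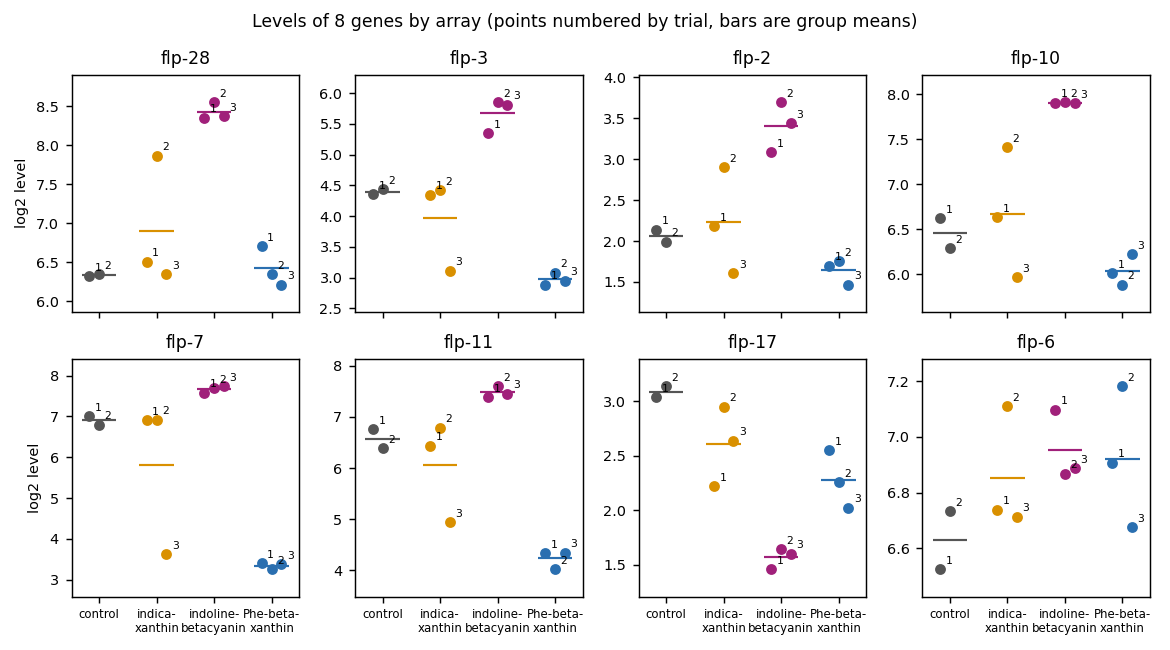
Log2 level of 8 FLP genes on every array, 1 panel per gene, with 1 point per array and a bar at the group mean. flp-28, flp-3, flp-2 and flp-10 are highest with indoline-betacyanin, flp-17 is lowest there, flp-7 and flp-11 are low with phenylalanine-betaxanthin and on indicaxanthin array 3, and flp-6 differs little between groups.

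Without indicaxanthin array 3 the same 4 genes and 16 more were called higher than control, and flp-17 and flp-1 lower. That is 64.5% and 6.45% of the family, against 17.1% and 18.2% of all clusters. The fitted changes were the same in both fits, since array 3 belongs to neither group, and the standard errors were smaller. flp-21, a ligand of the receptor NPR-1, read 3.88 and 4.24 on the control arrays, 4.69, 5.61 and 2.04 with indicaxanthin, 6.39, 6.39 and 6.30 with indoline-betacyanin, and 2.25, 1.87 and 1.94 with phenylalanine-betaxanthin. Its indoline-betacyanin arrays were above all others, by 2.30 over control, with an SE of 0.81 and adjusted p 0.0924 in 1 fit and 0.24 and 2.04e-05 in the other. flp-4 read 5.62 and 5.61 on the control arrays, 6.06, 6.23 and 2.54 with indicaxanthin, 7.52, 7.19 and 7.29 with indoline-betacyanin, and 2.76, 2.65 and 2.52 with phenylalanine-betaxanthin. It showed the same order of arrays, and its change of 1.71 had an adjusted p of 0.271 with all arrays and 4.51e-06 without array 3. The spread between indicaxanthin arrays decided whether these 2 genes passed.

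The remaining 14 genes that passed against control only without indicaxanthin array 3 were flp-5, flp-7, flp-11, flp-14, flp-15, flp-16, flp-18, flp-20, flp-22, flp-24, flp-25, flp-26, flp-27 and flp-34. flp-34, whose peptide acts on NPR-11 in aversive olfactory learning, had a log2 change of 1.27 (adjusted p 0.341 with all arrays, 0.000226 without array 3). flp-14, flp-25 and flp-26 had changes of 1.13, 1.11 and 1.11 (adjusted p 0.000466, 0.000401 and 0.0099 without array 3). For flp-22, flp-24 and flp-20 the changes were 1.01, 0.87 and 0.86, the last being a gene of touch receptor neurons, with adjusted p 0.000198, 0.0078 and 0.00133. flp-27, flp-18 and flp-5 changed by 0.82, 0.75 and 0.73 in that fit (adjusted p 0.00131, 0.00399 and 0.0080). For flp-11 and flp-7 the changes were 0.91 and 0.77 (adjusted p 0.24 and 0.656 with all arrays, 0.00167 and 0.000685 without array 3). For flp-16 and flp-15 the changes were 0.71 and 0.64 (adjusted p 0.0251 and 0.0167). All 14 changes were smaller than those of flp-28, flp-10, flp-2 and flp-3.

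The call rested on few arrays. Without control array 1 only flp-17 passed, and without control array 2 only flp-17 and flp-28. Without indoline-betacyanin arrays 1, 2 and 3 in turn, 3, 2 and 3 genes passed in place of 5. No share of all clusters stands beside these counts of left-out arrays, so the loss of calls is not read as particular to the FLP genes. Over 20 other settings, flp-17 passed in all 20, flp-28 in 19, flp-2 in 16, flp-10 in 15 and flp-3 in 10. Fold changes kept their direction in these settings. Centring on the panneuronal genes, given below, is not in that count, and in it only flp-17 of these genes passed.

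**Figure D3:**
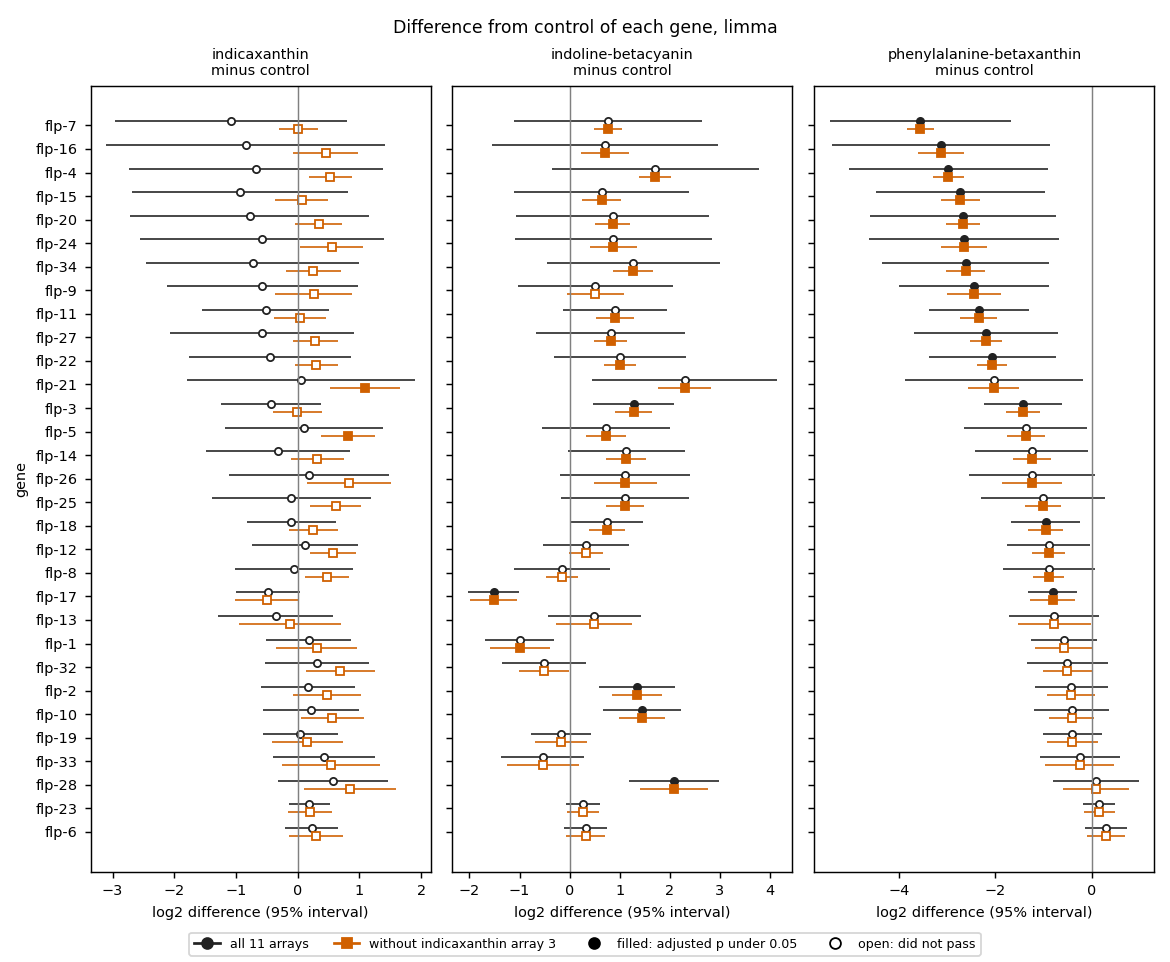
Log2 change of each FLP gene against control for each betalain, with 95% confidence intervals of the fits to all 11 arrays (circles) and without indicaxanthin array 3 (squares), filled where the adjusted p is under 0.05. With indoline-betacyanin the changes run from -1.52 at flp-17 to 2.30 at flp-21, and with phenylalanine-betaxanthin from -3.56 at flp-7 to 0.29 at flp-6.

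With phenylalanine-betaxanthin, 14 of 31 FLP genes fell against control and none rose. That is 45.2% of the family called lower, against 22.3% of all clusters, and 0 called higher, against 22.3% (limma, with 0 genes higher at an unadjusted p under 0.05). The median change was -1.23, against -0.05 over all clusters. In 28 genes all treated arrays were below both controls and in 1 all were above, against 40.5% and 34.9% of all clusters. All 3 of these arrays were high-yolk arrays and both controls were low-yolk arrays, so the compound and the yolk state cannot be told apart.

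flp-7, whose peptide is secreted from ASI neurons and promotes fat loss in the intestine through NPR-22, read 7.0 and 6.80 on the control arrays, 6.91, 6.92 and 3.63 with indicaxanthin, 7.58, 7.70 and 7.73 with indoline-betacyanin, and 3.40, 3.26 and 3.38 with phenylalanine-betaxanthin. The phenylalanine-betaxanthin arrays and indicaxanthin array 3 lay between 3.26 and 3.63, and the other 7 arrays between 6.80 and 7.73. flp-7 fell by 3.56, or 11.8-fold (SE 0.83, adjusted p 0.0169). flp-11, the peptide gene of the sleep-active neuron RIS, read 6.76 and 6.38 on the control arrays, 6.43, 6.79 and 4.94 with indicaxanthin, 7.39, 7.6 and 7.46 with indoline-betacyanin, and 4.33, 4.02 and 4.34 with phenylalanine-betaxanthin. The same 4 arrays were the low ones, and flp-11 fell by 2.34, or 5.07-fold (SE 0.45, adjusted p 0.00961). The third marker gene, flp-28, did not follow, at 0.09 with a 95% interval of -0.80 to 0.98.

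flp-16 read 7.29 and 7.29 on the control arrays, 7.6, 7.88 and 3.85 with indicaxanthin, 8.02, 8.03 and 7.95 with indoline-betacyanin, and 3.70, 4.61 and 4.17 with phenylalanine-betaxanthin. The 4 high-yolk arrays were low here too, and it fell by 3.13, or 8.73-fold (SE 1.0, adjusted p 0.0335). flp-4, whose array values stand above, fell by 2.97 (SE 0.91, adjusted p 0.0298). flp-15, a ligand of NPR-3, read 10.21 and 10.23 on the control arrays, 10.21, 10.36 and 7.27 with indicaxanthin, 10.85, 10.95 and 10.77 with indoline-betacyanin, and 7.14, 7.52 and 7.81 with phenylalanine-betaxanthin. It fell by 2.72 (SE 0.77, adjusted p 0.0245), and again indicaxanthin array 3 lay within the phenylalanine-betaxanthin range.

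flp-20 read 8.31 and 8.16 on the control arrays, 8.43, 8.72 and 5.21 with indicaxanthin, 9.06, 9.19 and 9.03 with indoline-betacyanin, and 5.34, 5.77 and 5.60 with phenylalanine-betaxanthin. flp-24, a gene of the ALA neuron in stress-induced sleep, read 6.90 and 6.85 on the control arrays, 7.06, 7.79 and 4.05 with indicaxanthin, 8.0, 7.67 and 7.57 with indoline-betacyanin, and 4.38, 4.25 and 4.04 with phenylalanine-betaxanthin. flp-34 read 7.13 and 7.24 on the control arrays, 7.10, 7.78 and 4.48 with indicaxanthin, 8.43, 8.52 and 8.42 with indoline-betacyanin, and 4.68, 4.51 and 4.51 with phenylalanine-betaxanthin. In all 3 genes the 4 high-yolk arrays were more than 1 log2 unit below every other array. The falls were 2.66 for flp-20, 2.65 for flp-24 and 2.62 for flp-34 (SE 0.85, 0.87 and 0.76, adjusted p 0.0339, 0.0365 and 0.0259).

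flp-9 read 7.23 and 7.27 on the control arrays, 7.25, 7.78 and 5.01 with indicaxanthin, 7.92, 7.58 and 7.80 with indoline-betacyanin, and 5.11, 5.08 and 4.23 with phenylalanine-betaxanthin. flp-27 read 7.09 and 6.85 on the control arrays, 7.06, 7.44 and 4.68 with indicaxanthin, 7.71, 7.87 and 7.78 with indoline-betacyanin, and 4.84, 4.79 and 4.70 with phenylalanine-betaxanthin. flp-22 read 8.85 and 8.84 on the control arrays, 8.95, 9.35 and 6.89 with indicaxanthin, 9.80, 9.94 and 9.82 with indoline-betacyanin, and 6.78, 6.76 and 6.82 with phenylalanine-betaxanthin. These genes showed the same 4 low arrays, and they fell by 2.44, 2.19 and 2.06 (SE 0.68, 0.66 and 0.58, adjusted p 0.0236, 0.0284 and 0.0239). flp-18, a further ligand of NPR-1, read 6.26 and 6.31 on the control arrays, 6.31, 6.77 and 5.45 with indicaxanthin, 6.92, 7.13 and 7.04 with indoline-betacyanin, and 5.31, 5.48 and 5.17 with phenylalanine-betaxanthin. It had a smaller fall of 0.96 (SE 0.32, adjusted p 0.0379).

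flp-3 and flp-17 were the genes called in the comparisons of both compounds with control, which share the control arrays. flp-3 fell by 1.43 with phenylalanine-betaxanthin (SE 0.36, adjusted p 0.0193), against its rise of 1.28 with indoline-betacyanin. flp-17 fell by 0.81 (SE 0.23, adjusted p 0.0236), against 1.52 with indoline-betacyanin.

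Without indicaxanthin array 3, 21 FLP genes were called lower than control with phenylalanine-betaxanthin, 67.7% of the family, against 32.5% of all clusters, with 28.5% called higher. The genes added were flp-21, flp-5, flp-14, flp-8, flp-25, flp-12 and flp-26, with log2 changes of -2.04, -1.37, -1.25, -0.89, -1.01, -0.89 and -1.23. flp-5 read 4.03 and 4.05 on the control arrays, 4.60, 5.11 and 2.72 with indicaxanthin, 4.90, 4.60 and 4.79 with indoline-betacyanin, and 2.80, 2.46 and 2.76 with phenylalanine-betaxanthin. flp-8 read 3.78 and 3.76 on the control arrays, 4.15, 4.34 and 2.65 with indicaxanthin, 3.40, 3.69 and 3.76 with indoline-betacyanin, and 2.77, 2.94 and 2.93 with phenylalanine-betaxanthin. In both, the 4 high-yolk arrays were lowest. Their adjusted p was 0.0742 and 0.113 with all arrays and 3.93e-05 and 0.000253 without array 3.

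flp-14 read 4.69 and 4.74 on the control arrays, 4.82, 5.25 and 3.11 with indicaxanthin, 5.84, 6.01 and 5.70 with indoline-betacyanin, and 3.41, 3.72 and 3.28 with phenylalanine-betaxanthin. flp-25 read 4.03 and 3.99 on the control arrays, 4.44, 4.82 and 2.46 with indicaxanthin, 5.26, 5.21 and 4.88 with indoline-betacyanin, and 2.99, 2.84 and 3.18 with phenylalanine-betaxanthin. Both genes were low on the 4 high-yolk arrays and highest with indoline-betacyanin. flp-26 read 3.85 and 3.54 on the control arrays, 3.93, 5.13 and 2.57 with indicaxanthin, 4.78, 4.72 and 4.92 with indoline-betacyanin, and 2.71, 2.27 and 2.40 with phenylalanine-betaxanthin. flp-12 read 2.88 and 3.05 on the control arrays, 3.36, 3.71 and 2.15 with indicaxanthin, 3.32, 3.20 and 3.33 with indoline-betacyanin, and 2.16, 2.17 and 1.88 with phenylalanine-betaxanthin. In these 2 genes indicaxanthin array 2 was the highest of all 11. The adjusted p without array 3 was 8.36e-05 for flp-14, 0.000318 for flp-25, 0.00266 for flp-26 and 0.000359 for flp-12.

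The control arrays and the treated arrays both set this count. Without control array 1 no gene passed (limma, 10 genes at an unadjusted p under 0.05, smallest adjusted p 0.085), and without control array 2 only 1 did. Without phenylalanine-betaxanthin arrays 1, 2 and 3 in turn, 3, 1 and 3 genes passed. Here too no share of all clusters stands beside the counts, so the loss of calls is not read as particular to the FLP genes. The family median stayed between -1.23 and -1.08 whichever single array was left out.

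Some FLP genes did not pass with phenylalanine-betaxanthin in either fit. flp-6, a gene of the thermosensory AFD neuron, read 6.53 and 6.73 on the control arrays, 6.74, 7.11 and 6.71 with indicaxanthin, 7.10, 6.87 and 6.89 with indoline-betacyanin, and 6.91, 7.18 and 6.68 with phenylalanine-betaxanthin. The indoline-betacyanin arrays were above both controls and the other groups overlapped, and the difference of phenylalanine-betaxanthin from control had a 95% interval of -0.14 to 0.73. For flp-23, flp-10, flp-2 and flp-33 the changes were 0.16, -0.41, -0.43 and -0.25, and none passed in either fit. flp-10 and flp-2 were nevertheless lower on each of the 4 high-yolk arrays than on every other array.

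With indicaxanthin, no FLP gene differed from control when all 3 arrays were used. The shares of all clusters called were 0.315% higher and 5.88% lower, no FLP gene had an unadjusted p under 0.05 in limma, and the adjusted p-values ran from 0.333 at flp-17 to 0.976 at flp-21. The median change was -0.11, against 0.05 over all clusters. The 3 genes of smallest p were flp-17 at -0.48 (SE 0.23), flp-28 at 0.57 (SE 0.39) and flp-7 at -1.08 (SE 0.83). The group SD of flp-7 was 1.90 with indicaxanthin and 0.14 in the controls, so array 3 set the spread.

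Without array 3, flp-21 and flp-5 rose with indicaxanthin, by 1.09 (SE 0.26, adjusted p 0.0205) and 0.82 (SE 0.20, adjusted p 0.0209). That is 6.45% of the family called higher, against 3.04% of all clusters, and 0 called lower, against 7.45%. In 19 genes both indicaxanthin arrays were above both controls and in 1 both were below, against 30.6% and 20.9% of all clusters. In limma 11 FLP genes had an unadjusted p under 0.05, all of them higher, but all clusters were not counted at that threshold. The median change was 0.32, against 0.06 over all clusters. Next in order were flp-12 at 0.58 (SE 0.17, adjusted p 0.0539), flp-4 at 0.53 (SE 0.16, adjusted p 0.0582) and flp-25 at 0.62 (SE 0.19, adjusted p 0.0618), which did not pass. These values rest on 2 arrays, of which array 2 was the higher in 30 of 31 genes.

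The 3 betalains were given at 1 dose and for 1 time, so they were compared directly in 3 pairs. Between indoline-betacyanin and phenylalanine-betaxanthin, which differ in the amine joined to betalamic acid, 23 FLP genes were higher with indoline-betacyanin and flp-17 was lower. That is 74.2% and 3.23% of the family, against 23.5% and 23.8% of all clusters. The median difference was 2.11, against 0.03 over all clusters. In 24 genes the indoline-betacyanin arrays were all above the phenylalanine-betaxanthin arrays and in 1 all below, against 34.3% and 32.5% of all clusters.

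The widest differences were at flp-4, flp-21 and flp-7. flp-4 was 25.8-fold higher with indoline-betacyanin (4.69 on the log2 scale, SE 0.81, adjusted p 0.00285). flp-21 was 20.2-fold higher (4.34, SE 0.73, adjusted p 0.00251). flp-7 was 20.1-fold higher (4.33, SE 0.74, adjusted p 0.00271). Among the 5 genes that passed against control with indoline-betacyanin, flp-3 differed by 2.70 (SE 0.32, adjusted p 0.000549), flp-28 by 2.00 (SE 0.35, adjusted p 0.00304), flp-10 by 1.86 (SE 0.31, adjusted p 0.00234), flp-2 by 1.77 (SE 0.30, adjusted p 0.00257) and flp-17 by -0.71 (SE 0.20, adjusted p 0.0184). The sleep gene flp-11 differed by 3.25 (SE 0.41, adjusted p 0.000708).

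The other genes called higher with indoline-betacyanin than with phenylalanine-betaxanthin ranged from 1.21 at flp-12 to 3.89 at flp-34. flp-13, a sleep peptide gene of the ALA neuron, read 3.40 and 3.09 on the control arrays, 2.51, 3.74 and 2.42 with indicaxanthin, 3.60, 4.07 and 3.54 with indoline-betacyanin, and 2.96, 2.34 and 2.11 with phenylalanine-betaxanthin. Its indoline-betacyanin arrays were above both controls and its phenylalanine-betaxanthin arrays below them, and the groups differed by 1.27 (SE 0.37, adjusted p 0.0199). Between 22 and 25 of the 31 genes were called in total when any 1 array was left out. Without indicaxanthin array 3, flp-8 joined, at 0.73 (adjusted p 0.000428), while the background shares were 29.7% higher and 29.3% lower. All phenylalanine-betaxanthin arrays were high-yolk and all indoline-betacyanin arrays low-yolk, so here too compound and yolk state cannot be told apart.

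For 7 genes this pair did not differ past the threshold with all arrays. The 95% interval of the difference was -0.36 to 0.42 for flp-6, -0.18 to 0.41 for flp-23, -0.31 to 0.77 for flp-19 and -0.76 to 0.75 for flp-32. It was -1.03 to 0.45 for flp-33, -1.04 to 0.20 for flp-1 and -0.12 to 1.59 for flp-8. flp-19 read 2.61 and 2.41 on the control arrays, 2.35, 2.98 and 2.33 with indicaxanthin, 1.90, 2.48 and 2.64 with indoline-betacyanin, and 2.30, 1.94 and 2.10 with phenylalanine-betaxanthin. The phenylalanine-betaxanthin arrays were below both controls, and the other groups overlapped.

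**Figure D4:**
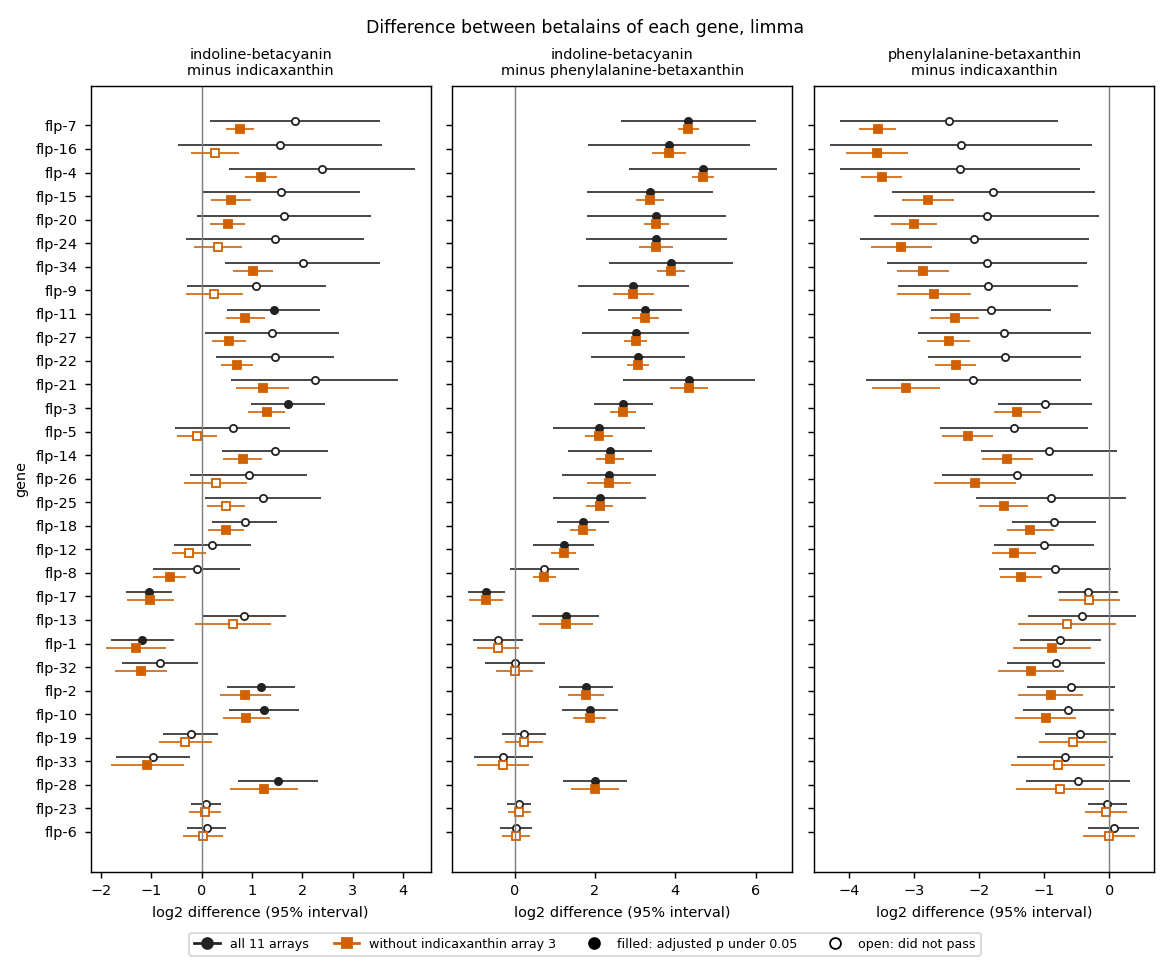
Log2 difference of each FLP gene between pairs of betalains, with 95% confidence intervals of the fits to all 11 arrays (circles) and without indicaxanthin array 3 (squares), filled where the adjusted p is under 0.05. Indoline-betacyanin exceeds phenylalanine-betaxanthin by up to 4.69 at flp-4, and the pair of phenylalanine-betaxanthin and indicaxanthin has filled points only without array 3.

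Between indoline-betacyanin and indicaxanthin, 5 genes were higher with indoline-betacyanin and 2 lower, 16.1% and 6.45% of the family, against 9.78% and 4.42% of all clusters. The higher genes were flp-3 at 1.71 (SE 0.32, adjusted p 0.00814), flp-28 at 1.52 (SE 0.35, adjusted p 0.0217), flp-11 at 1.43 (SE 0.41, adjusted p 0.0482), flp-10 at 1.24 (SE 0.31, adjusted p 0.0287) and flp-2 at 1.18 (SE 0.30, adjusted p 0.031). The lower genes were flp-17 at -1.04 (SE 0.20, adjusted p 0.00985) and flp-1 at -1.17 (SE 0.27, adjusted p 0.0221). The median difference was 1.21, against -0.05 over all clusters, and -0.039 when arrays were centred on the panneuronal genes.

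Indicaxanthin arrays 1 and 2 and all indoline-betacyanin arrays were low-yolk arrays. Without indicaxanthin array 3, 15 genes were higher with indoline-betacyanin and 5 lower, against 14.4% and 13.5% of all clusters, and the median difference was 0.49, against -0.02. All 7 genes above passed again. flp-28 differed by 1.24 (SE 0.31, adjusted p 0.0108), flp-3 by 1.29 (SE 0.16, adjusted p 0.000159) and flp-17 by -1.02 (SE 0.21, adjusted p 0.00413). flp-32, flp-33 and flp-8 were the added lower genes, at -1.20 (SE 0.23, adjusted p 0.00239), -1.08 (SE 0.33, adjusted p 0.0297) and -0.63 (SE 0.15, adjusted p 0.00742).

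flp-32 read 3.45 and 3.47 on the control arrays, 3.93, 4.37 and 3.03 with indicaxanthin, 2.57, 3.22 and 3.06 with indoline-betacyanin, and 3.28, 2.91 and 2.66 with phenylalanine-betaxanthin. flp-33 read 3.28 and 3.43 on the control arrays, 3.26, 4.54 and 3.57 with indicaxanthin, 2.46, 2.71 and 3.29 with indoline-betacyanin, and 3.26, 2.98 and 3.08 with phenylalanine-betaxanthin. In both genes indicaxanthin array 2 was the highest of all arrays, and no indoline-betacyanin array was above both controls. The 15 higher genes included flp-4 at 1.19 (SE 0.14, adjusted p 0.000111), flp-21 at 1.21 (SE 0.24, adjusted p 0.00277) and flp-34 at 1.02 (SE 0.18, adjusted p 0.00151). flp-6 differed by 0.03, with a 95% interval of -0.37 to 0.42, and did not pass.

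Between phenylalanine-betaxanthin and indicaxanthin no FLP gene passed with all arrays (limma, smallest adjusted p 0.14), and 0% of all clusters were called in either direction. At an unadjusted p under 0.05 in limma there were 19 FLP genes, all lower with phenylalanine-betaxanthin, but all clusters were not counted at that threshold. The median difference was -0.99, against -0.05. In 6 genes all phenylalanine-betaxanthin arrays were below all indicaxanthin arrays, against 8.64% of all clusters. Without indicaxanthin array 3, 24 genes were lower with phenylalanine-betaxanthin and none higher, 77.4% of the family, against 28.5% and 26.6% of all clusters, and 26 genes did not overlap, all lower, against 37.5% of all clusters. flp-16 differed by -3.58 (SE 0.22, adjusted p 9.36e-08), flp-7 by -3.57 (SE 0.13, adjusted p 1.89e-09) and flp-4 by -3.50 (SE 0.14, adjusted p 4.39e-09) in that fit. In it the phenylalanine-betaxanthin arrays were all high-yolk and the indicaxanthin arrays all low-yolk.

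The authors also deposited a ratio and an unadjusted p-value for each betalain over control. In the authors' deposited table for indoline-betacyanin, 26 FLP genes had a ratio above 1 and 5 below. Of these, 12 with a ratio above 1, among them flp-28, flp-3, flp-2 and flp-10, and 1 with a ratio below 1, flp-17, had a p under 0.05 in the authors' deposited table. Of all 29317 clusters, 4839 had a p under 0.05 in the authors' deposited table, both directions together. The ratio of flp-28 was 4.18 (p 1.56e-05) and that of flp-17 was 0.429 (p 0.00738) in the authors' deposited table. For phenylalanine-betaxanthin the authors' deposited table held 28 ratios below 1 and 3 above, with a p under 0.05 at flp-12 and flp-18 (below) and flp-23 (above). Of all 29317 clusters, 1921 had such a p in the authors' deposited table for this compound. For flp-7 the ratio there was 0.208, with a p of 0.15 in the authors' deposited table. For indicaxanthin the authors' deposited table is limited to clusters of p under 0.05, and flp-4 is its only FLP gene, at a ratio of 1.5 (p 0.0224).

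The sums of squares bear on how many arrays entered these tables. The treatment sum of squares over the squared log2 ratio was 1.5 in the authors' deposited tables for indoline-betacyanin and phenylalanine-betaxanthin, the size that 3 arrays against 3 give, and 1.0 for indicaxanthin, the size of 2 against 2. If a further control array entered with equal weight, its implied FLP level was below both control arrays used here in 27 of 31 genes by the first of these tables and in 29 by the second, with a mean over the family of 3.71 and 3.66. For flp-7 this implied level was 2.85 and 3.03, near the high-yolk arrays, and for flp-28 it was 6.41 and 6.26, near the 2 controls. No such array was analysed here, and every fit above rests on the 2 control arrays.

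The machinery that makes and releases these peptides was read from lists of other genes. Of 13 peptide processing genes, 1 was higher with indoline-betacyanin than control and none lower, with a median change of 0.82. It was kpc-1, a proprotein convertase, at 1.09 (SE 0.27, adjusted p 0.0248), and nep-1, a neprilysin peptidase that degrades peptides, was at -1.22 (SE 0.37, adjusted p 0.0509). The shares of all clusters were 7.97% and 9.37%. When indicaxanthin array 3 was left out, 8 were higher and 1 lower, against 17.1% and 18.2% of all clusters. With phenylalanine-betaxanthin 7 of 13 fell and none rose, with a median of -1.40, and 11 fell without array 3, against 22.3% and 32.5% of all clusters lower in these fits. egl-21 changed by -2.02 (SE 0.50, adjusted p 0.0191), egl-3 by -1.94 (SE 0.49, adjusted p 0.0197), sbt-1, which encodes the chaperone of EGL-3, by -2.33 (SE 0.66, adjusted p 0.0246) and nep-1 by -1.40 (SE 0.37, adjusted p 0.0206).

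Of 12 genes of dense-core vesicle formation and release, 2 rose with indoline-betacyanin, tbc-8 at 2.51 (SE 0.19, adjusted p 3.9e-05) and rund-1 at 1.72 (SE 0.20, adjusted p 0.000392), both of which act in vesicle maturation, and none fell. With indicaxanthin array 3 left out, 6 were higher, against 7.97% and 17.1% of all clusters in these fits. unc-31, which encodes the release factor CAPS, was at 0.58 (SE 0.18, adjusted p 0.0514) and did not pass. With phenylalanine-betaxanthin 4 fell and 1 rose, and 6 fell and 1 rose without array 3, where 22.3% and 32.5% of all clusters were lower. ida-1, a vesicle membrane protein gene, changed by -2.17 (SE 0.57, adjusted p 0.0206) and unc-13 by -1.63 (SE 0.49, adjusted p 0.0281), while eipr-1 rose by 1.99 (SE 0.43, adjusted p 0.0138).

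Of 82 peptide receptor genes, 72 passed the filter. With indoline-betacyanin 30 of 72 rose and none fell with all arrays, and 41 rose and 2 fell without indicaxanthin array 3, with a median change of 0.50. Of all clusters 7.97% were higher and 9.37% lower with all arrays, and 17.1% and 18.2% without array 3. The smallest p-values were those of npr-44 at 1.59 (SE 0.13, adjusted p 5.29e-05), npr-17 at 1.76 (SE 0.19, adjusted p 0.000237), npr-13 at 1.79 (SE 0.20, adjusted p 0.000292) and frpr-9 at 1.21 (SE 0.15, adjusted p 0.00062). With phenylalanine-betaxanthin 11 fell and none rose, and 27 fell without array 3, against 22.3% and 32.5% of all clusters lower. The median was -0.28, and the genes that fell included dmsr-16 at -0.93 (SE 0.20, adjusted p 0.0139) and npr-33 at -1.07 (SE 0.24, adjusted p 0.0145). With indicaxanthin these same 2 genes were the receptors called with all arrays, at -0.88 (SE 0.20, adjusted p 0.0332) and -1.04 (SE 0.24, adjusted p 0.0314), against 5.88% of all clusters lower, and without array 3 2 receptors were higher and 2 lower, against 3.04% and 7.45%.

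Some receptors have known FLP ligands, and 4 of these beside egl-6 were picked here after their values were seen. frpr-18, the receptor of FLP-2 peptides, rose by 1.88 (SE 0.27, adjusted p 0.00134) with indoline-betacyanin, where flp-2 also rose, and was at -0.81 (SE 0.27, adjusted p 0.0378) with phenylalanine-betaxanthin. npr-3, the receptor of FLP-15, was at 1.32 (SE 0.37, adjusted p 0.037) and -1.01 (SE 0.37, adjusted p 0.0508). npr-1, the receptor of FLP-18 and FLP-21 peptides, was at 0.49 (SE 0.15, adjusted p 0.0494) with indoline-betacyanin and -0.08 with phenylalanine-betaxanthin. npr-22, the receptor of FLP-7, was at -0.07 and -0.13, although flp-7 fell with phenylalanine-betaxanthin.

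**Figure D5:**
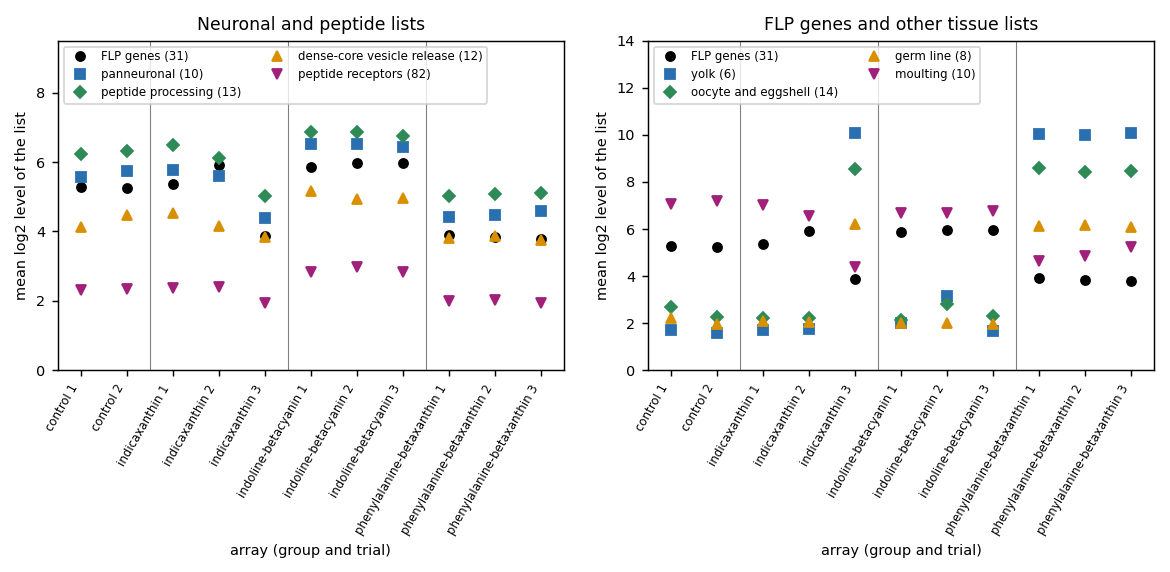
Mean log2 level of gene lists on each array, with 1 point per list and array. On the left, all 5 lists are lowest on indicaxanthin array 3 and the phenylalanine-betaxanthin arrays, while from indicaxanthin array 1 to array 2 the FLP mean rises from 5.36 to 5.90 and the panneuronal, processing and vesicle means fall. On the right, yolk, oocyte and germ line lists are high on indicaxanthin array 3 and the 3 phenylalanine-betaxanthin arrays, where the FLP and moulting lists are low.

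Genes used by all neurons were likewise low on the 4 high-yolk arrays and high with indoline-betacyanin, but did not share the FLP difference between indicaxanthin arrays 1 and 2. The 10 panneuronal genes had a mean log2 level of 5.58 and 5.75 in the controls, 5.76, 5.59 and 4.39 with indicaxanthin, 6.53, 6.51 and 6.45 with indoline-betacyanin, and 4.41, 4.48 and 4.60 with phenylalanine-betaxanthin. Of these 10 genes 2 rose with indoline-betacyanin, unc-10 at 1.47 (SE 0.37, adjusted p 0.0256) and unc-104 at 1.71 (SE 0.45, adjusted p 0.0305), and 9 fell with phenylalanine-betaxanthin, among them rab-3 at -1.85 (SE 0.53, adjusted p 0.0248) and unc-18 at -0.88 (SE 0.26, adjusted p 0.0258). In the fits that leave out indicaxanthin array 3, 7 rose and 9 fell in these comparisons. Of all clusters 7.97% were higher with indoline-betacyanin and 22.3% lower with phenylalanine-betaxanthin with all arrays, and 17.1% and 32.5% without array 3. The FLP mean less the panneuronal mean was -0.31 and -0.50 on the control arrays, -0.66, -0.54 and -0.49 with indoline-betacyanin, and -0.51, -0.64 and -0.83 with phenylalanine-betaxanthin. With indicaxanthin it was -0.40, 0.31 and -0.53, array 2 being the only array above 0.

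When each array was instead centred on these 10 genes, a setting added after the data were seen, the family medians were -0.064 for indoline-betacyanin and -0.068 for phenylalanine-betaxanthin against control. Relative to panneuronal genes, flp-28 was higher with indoline-betacyanin by 1.26 (adjusted p 0.0546), flp-10 by 0.62 (0.17), flp-2 by 0.51 (0.268) and flp-3 by 0.44 (0.218), and none of these 4 passed. flp-17 was at -2.35 on the same footing (adjusted p 0.00466) and passed. That value joins the panneuronal rise to a level around the filter level, where a lower true level could not be read. A change of flp-17 per neuron was not tested. This centring moved the median of all clusters to -0.81 and 1.11 in these 2 comparisons.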

How the data were processed

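RNA of whole animals was measured on 11 Affymetrix arrays, with cDNA made from 3.5 ng of every sample, per the labels' protocols. The authors' deposited log2 values, 1 per transcript cluster and array, were made with RMA (background correction, quantile normalization and probe summary), per the submitters' processing notes. The array model and RMA version are not stated in the labels. The authors' deposited tables give a linear ratio of treated over control, an unadjusted p-value and a sum of squares used as a score, per the file headers. They were used for gene names and as a comparison.

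Of 29317 clusters, 27055 were named and 26811 of these matched RefSeq. The 2262 unnamed clusters were left out. Named clusters with a mean level above their 25th percentile, 1.52, were tested, which left 20291. limma 3.58.1 in R 4.3.3 (lmFit and eBayes) fitted 4 group means to all 11 arrays without a block (7 residual degrees of freedom, prior 1.93), with Benjamini-Hochberg adjustment over all clusters tested at 0.05, for 6 comparisons. The procedure was tested on simulated data. Precision is limited by the number of arrays. Counts of FLP genes at an unadjusted p in limma stand without the share of all clusters, which was not counted at that threshold.

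The members, the lists and the tests were chosen with earlier results of these data known. Every FLP gene could be named. Genes past the threshold in either fit, and flp-7, flp-11 and flp-28, are given with their values, and up to 4 genes of smallest p from each other list. A further 4 receptors were added for their known ligands after their values were seen. Trial numbers were not used to pair samples in the main fit. Deviations from the group mean correlated at -0.29 to 0.10 over 15 pairs of arrays of 1 number, and at -0.18 to 0.26 over 30 other pairs. In groups of so few arrays the deviations depend on each other, so these values cannot exclude a pairing. Sequences were not used here.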

Additional observations from a re-analysis of the deposited data

How the results depend on the processing

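Counts of FLP genes called are totals of both directions. Shares of all clusters are given above for the fits with all arrays and without indicaxanthin array 3 only. For the other settings no such share stands beside the counts, at the adjusted or the unadjusted threshold. Changes of the counts between settings are thus not read as particular to the FLP genes. Leaving out 1 array at a time gave 0 to 2 genes for indicaxanthin against control, 1 to 22 for indoline-betacyanin against control and 0 to 21 for phenylalanine-betaxanthin against control. Between betalains it gave 2 to 20 for indoline-betacyanin against indicaxanthin, 22 to 25 for indoline-betacyanin against phenylalanine-betaxanthin and 0 to 24 for phenylalanine-betaxanthin against indicaxanthin. The high ends come from leaving out indicaxanthin array 3. Over the same sets the family medians ran from -0.66 to 0.32, 0.72 to 0.87, -1.23 to -1.08, 0.49 to 1.64, 2.03 to 2.23 and -1.57 to -0.69, in the same order. Array weights gave 20 genes for indoline-betacyanin against control and against indicaxanthin, 21 for phenylalanine-betaxanthin against control and 23 for it against indicaxanthin. Fitting only the groups compared gave 23 genes for indoline-betacyanin against control, 24 for phenylalanine-betaxanthin against control and 0 for indoline-betacyanin against indicaxanthin (limma, 8 at an unadjusted p under 0.05). That setting leaves the spread of indicaxanthin array 3 out of the first 2 and keeps it in the last.

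With the trial number as a replicate block, 4 genes were called for phenylalanine-betaxanthin against control in place of 14, and the medians were -0.98 there and 1.12 for indoline-betacyanin against control. What arrays of 1 trial number share is not stated in the labels. Centring each array on its median moved these medians to -1.08 and 0.93, and moved the median of all clusters to 0.19 for indicaxanthin and 0.18 for indoline-betacyanin against control. Testing only clusters above the median level gave a median of 2.23 for indoline-betacyanin against phenylalanine-betaxanthin, with 30 members tested. Centring on the panneuronal genes, chosen after seeing the data, turned the majority to lower for indoline-betacyanin against control (4 genes, all lower) and against indicaxanthin (9, all lower). The medians became -0.064, -0.039, 0.11 for indoline-betacyanin against phenylalanine-betaxanthin and -0.068 for phenylalanine-betaxanthin against control. It reversed flp-17 (0.36) and flp-18 (0.21) for phenylalanine-betaxanthin against control, and flp-2 (-0.071), flp-10 (-0.015) and flp-12 (-1.04) for indoline-betacyanin against indicaxanthin. It also reversed flp-2 (-0.23), flp-10 (-0.13), flp-18 (-0.29), flp-12 (-0.78), flp-13 (-0.73) and flp-8 (-1.27) for indoline-betacyanin against phenylalanine-betaxanthin. The cause of these changes was not tested.

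Of the values of single genes under all alternatives, 181 passed the threshold newly and 163 no longer passed. A further 11, given above, reversed direction where the main or the alternative setting passed. The other 3173 kept their side of the threshold, and these include changes of direction where neither setting passed.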
